A study of Mus musculus with 15 samples.

Results

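The genes described here are 29 genes that make or control cholesterol and fatty acids, found as rows of the deposited tables among 30281 named genes. They were chosen by name with earlier results of these data known. Counts of them set beside shares of all genes are therefore descriptions. The 29 comprise 7 genes of the mevalonate steps, 11 genes of the squalene and sterol steps, 7 genes of fatty acid synthesis, and 4 genes of regulation and sterol transport. RNA was sequenced from skin of C57BL/6 mice at day 0, day 1, day 3, day 5 and day 7, with 3 libraries at each day and 15 in all. All libraries carry a wound label, the day 0 libraries included, and no other treatment or genotype is named. The labels give neither the age nor the sex of the mice, nor where on the body the wound lay, and do not say whether the libraries of a day came from separate mice. P-values therefore measure the spread between these libraries only, which may be technical.

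Cholesterol is built from acetyl-CoA by way of mevalonate, isoprenoid units, squalene and lanosterol, and fatty acids are built from the same acetyl-CoA by acetyl-CoA carboxylase and fatty acid synthase. Transcription of both pathways is driven by the SREBP proteins, encoded by Srebf1 and Srebf2, which sterols hold in the endoplasmic reticulum together with the INSIG proteins. In skin, both kinds of lipid go into the water barrier of the epidermis and into sebum, and dermal fat cells also make fatty acids.

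The libraries held 38062562 to 60450396 estimated counts, and all 29 genes passed the filter on low counts. Levels are given as CPM, a gene's count relative to the library total after TMM scaling in edgeR, and fold changes as log2 differences with their standard errors. A gene was called when its Benjamini-Hochberg adjusted p in edgeR's quasi-likelihood test, over 17136 genes tested, was under 0.05. In 3 libraries the marker genes set them off from their group. Day 0 replicate 1 had a summed level of 5 wound-edge keratinocyte markers of 2287 CPM, against 368 and 490 CPM in the other day 0 libraries, and the day 1 libraries ranged from 2858 to 5888 CPM. Day 5 replicate 2 and day 7 replicate 3 had summed levels of 14 hair shaft and sheath markers of 12549 and 15457 CPM, against at most 1454 CPM in every other library, and are referred to as hair-rich. Markers of skeletal muscle (2059 to 9691 CPM over 5 genes) and of fat cells (847 to 3180 CPM over 9 genes) were present in every library, although the extraction notes say that muscle and fat were removed. The tissue is mixed, so fewer cells of a type and less RNA per cell cannot be told apart.

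The promoters of these genes are shown as a description, and their part in the levels measured here was not tested. RefSeq promoter sequences (GRCm38.p6, from 250 bases before to 50 bases after the annotated start) were matched for 22 of the 29 genes. In the following 5 promoters, written 5′ to 3′ on the gene's strand, capitals mark the letters CCAAT or their reverse complement ATTGG, the box bound by NF-Y, and, in Hmgcs1 alone, the sterol regulatory element TCACCCCAC bound by SREBP.
Hmgcs1, chr13:119690101-119690400, plus strand: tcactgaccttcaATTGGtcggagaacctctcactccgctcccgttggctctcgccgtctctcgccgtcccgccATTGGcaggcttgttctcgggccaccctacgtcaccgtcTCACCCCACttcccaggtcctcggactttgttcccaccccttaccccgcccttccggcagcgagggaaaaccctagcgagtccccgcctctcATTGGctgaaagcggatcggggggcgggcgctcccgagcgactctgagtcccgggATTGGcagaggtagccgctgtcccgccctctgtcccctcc
Idi1, chr13:8885356-8885655, plus strand: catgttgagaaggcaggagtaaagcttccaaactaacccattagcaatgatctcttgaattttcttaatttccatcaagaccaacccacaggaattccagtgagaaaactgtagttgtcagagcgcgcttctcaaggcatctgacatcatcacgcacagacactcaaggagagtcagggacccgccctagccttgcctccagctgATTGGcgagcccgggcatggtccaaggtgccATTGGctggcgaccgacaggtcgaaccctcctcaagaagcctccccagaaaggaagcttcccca
Nsdhl, chrX:72918271-72918570, plus strand: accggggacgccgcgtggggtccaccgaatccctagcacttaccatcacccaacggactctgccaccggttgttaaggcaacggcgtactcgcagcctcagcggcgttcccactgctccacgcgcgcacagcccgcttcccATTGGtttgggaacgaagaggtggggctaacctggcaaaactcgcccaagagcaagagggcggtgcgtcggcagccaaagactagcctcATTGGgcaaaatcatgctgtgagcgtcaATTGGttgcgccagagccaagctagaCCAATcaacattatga
Sc5d, chr9:42264251-42264550, minus strand: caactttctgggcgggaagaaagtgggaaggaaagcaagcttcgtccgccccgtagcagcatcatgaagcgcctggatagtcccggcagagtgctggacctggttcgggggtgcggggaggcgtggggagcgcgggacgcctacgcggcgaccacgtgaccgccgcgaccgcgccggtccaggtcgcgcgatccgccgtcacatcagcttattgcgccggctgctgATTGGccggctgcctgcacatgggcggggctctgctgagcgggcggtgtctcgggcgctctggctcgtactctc
Fasn, chr11:120824498-120824797, minus strand: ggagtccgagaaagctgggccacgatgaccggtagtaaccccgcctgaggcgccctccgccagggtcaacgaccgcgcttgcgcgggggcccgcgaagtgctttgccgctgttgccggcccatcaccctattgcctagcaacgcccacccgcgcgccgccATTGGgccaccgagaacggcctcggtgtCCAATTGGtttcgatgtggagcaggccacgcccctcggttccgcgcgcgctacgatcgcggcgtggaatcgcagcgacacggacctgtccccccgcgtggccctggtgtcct

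CCAAT was found on either strand in 19 of the 22 genes (86.4%), against 41.1% of all genes in the same table. It was present in 9 of 9 genes of the squalene and sterol steps, 5 of 6 mevalonate genes, 3 of 3 regulators and 2 of 4 fatty acid genes. In Fasn, 1 pair of these boxes overlapped, as CCAATTGG. The Sp1 box GGGCGG was found in 18 of the 22 genes (81.8%), against 38.2% of all genes. The E-box CACGTG was found in 4 (18.2%), against 8.09%. The sterol regulatory element, searched as TCACNCCAC, was found in 1 of the 22 genes (4.55%), Hmgcs1, 137 bases before the start, against 1.44% of all genes. Acat2, Acaca and Elovl6 held no CCAAT, and Acaca and Elovl6 held none of the motifs searched. These are matches of letters in a short window, not measured binding.

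At day 1, 22 of the 29 genes had their highest day mean, against 23.2% of all genes tested. These were all 7 mevalonate genes, 7 of 11 squalene and sterol genes, 4 of 7 fatty acid genes and all 4 regulators. The fold change from day 0 to day 1 was above 0 for 25 of 29 genes, against 49% of all genes, with a median of 0.28 on the log2 scale, against -0.01 over all genes tested. Single genes, however, rarely passed the test. In edgeR's quasi-likelihood test 1 of 29 was called, and it was higher at day 1, while 7.58% of all genes were called and 4.22% were called higher. That fit estimated spread from all 15 libraries. Without both hair-rich libraries, which belong to neither day, 20.5% of all genes were called, and the count among the 29 is not reported here. The scarcity of calls thus depended in part on libraries of other days. DESeq2 called 2, Stard4 and Sc5d, against 16.3% of all genes. Another 9 genes had an unadjusted p under 0.05, so that 10 of 29 did, all higher at day 1, against 14.2% of all genes in that direction.

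**Figure D1:**
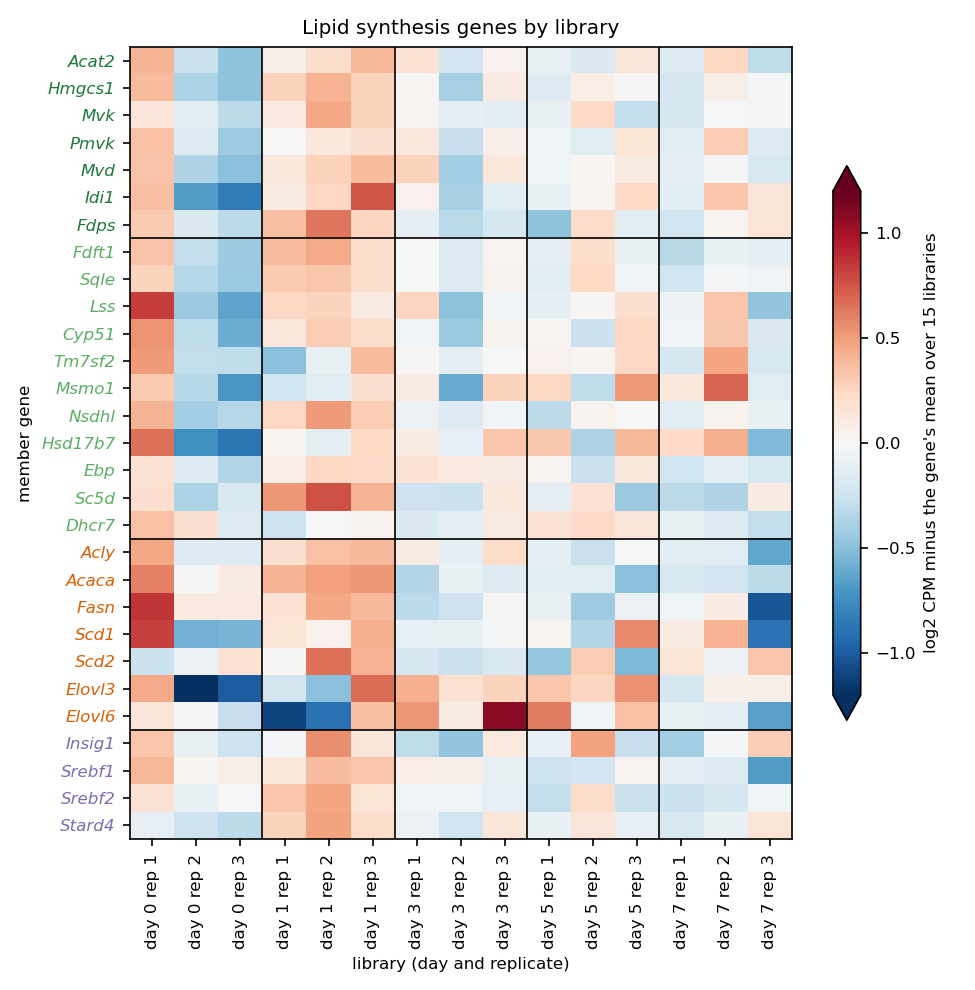
Each row is a gene and each column a library, ordered by day and replicate, and colour gives the log2 CPM minus the gene's mean over the 15 libraries. Day 0 replicate 1 and the 3 day 1 libraries are above the mean for most genes, and day 0 replicates 2 and 3 are below it for most.

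The called gene was Stard4, which encodes a soluble protein that carries cholesterol between membranes. Its level was 39.0, 35.0 and 33.5 CPM in the 3 day 0 libraries and 49.9, 58.1 and 48.4 CPM in the 3 day 1 libraries. All day 1 libraries were above all day 0 libraries. The mean rose from 35.8 ± 2.84 to 52.2 ± 5.22 CPM (SD, n = 3 each), a log2 fold change of 0.54 ± 0.13 (SE) with an adjusted p of 0.0279 in edgeR. Stard4 then measured 39.6, 35.2 and 45.9 CPM at day 3, 39.3, 46.2 and 38.7 CPM at day 5, and 36.3, 39.4 and 46.7 CPM at day 7. These later values lay below every day 1 library and overlapped the day 0 values. The call rested on each library of both days other than day 0 replicate 1, without which it was kept. Leaving out any other 1 library of these days gave an adjusted p between 0.0527 and 0.126 in edgeR.

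Among the squalene and sterol genes, Sc5d, which introduces a double bond into the sterol ring late in the pathway, stood next. Its level was 36.9, 24.7 and 28.3 CPM at day 0 and 46.2, 54.6 and 42.6 CPM at day 1, without overlap. The log2 difference was 0.67 ± 0.20 with an adjusted p of 0.056 in edgeR, just above the threshold. The later libraries overlapped the day 0 values, with 27.0, 27.0 and 35.2 CPM at day 3, 29.8, 36.4 and 23.7 CPM at day 5, and 25.8, 25.1 and 34.6 CPM at day 7. Sc5d and Stard4 were the only 2 of 29 genes whose day 1 libraries all lay above the day 0 libraries, against 19.8% of all genes.

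Fdft1 encodes squalene synthase, the first enzyme that commits the pathway to sterols. It measured 71.3, 45.9 and 41.8 CPM at day 0 and 72.9, 77.6 and 65.4 CPM at day 1. Day 0 replicate 1 sat among the day 1 libraries, and the other day 0 libraries sat below them. The later days gave 56.4, 50.3 and 57.8 CPM, then 52.1, 65.1 and 53.3 CPM, then 44.7, 53.4 and 51.9 CPM. The day 1 difference of 0.44 ± 0.17 (log2) had an adjusted p of 0.127 in edgeR. Its exons overlap those of Ctsb on the opposite strand over 18.3% of their length, and whether the counting used strand is not given in the sources used here.

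Idi1 and Fdps, the mevalonate genes whose day means ranged most, showed the same arrangement of libraries. Idi1 isomerises the isoprenoid unit; it measured 277, 135 and 120 CPM at day 0 and 232, 256 and 362 CPM at day 1. Its later values were 223, 164 and 195 CPM at day 3, 203, 219 and 254 CPM at day 5, and 198, 272 and 241 CPM at day 7. Day 0 replicates 2 and 3 were thus the lowest of all 15 libraries for Idi1. Fdps joins isoprenoid units into farnesyl diphosphate; it measured 107, 76.4 and 69.6 CPM at day 0 and 111, 135 and 103 CPM at day 1. It measured 80.3, 69.1 and 74.8 CPM at day 3, 61.8, 100.5 and 78.5 CPM at day 5, and 73.1, 88.3 and 96.6 CPM at day 7. The log2 differences at day 1 were 0.67 ± 0.28 for Idi1 (adjusted p = 0.145, edgeR) and 0.46 ± 0.19 for Fdps (adjusted p = 0.148, edgeR). The exons of Fdps overlap those of another gene on the same strand over 26.7% of their length, so its reads may be split. Smaller overlaps were found for Hmgcs1 (12.1%, opposite strand), Tm7sf2 (12.1%, same strand) and Idi1 (9.22%, opposite strand).

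Across all 29 genes, the day 0 libraries did not form a tight group. Day 0 replicate 1 was the highest of the 3 day 0 libraries for 28 of 29 genes (96.6%), against 39.3% of all genes tested. Its median excess over the mean of the other day 0 libraries was 0.67 on the log2 scale, against -0.00 over all genes. The excess was 3.06-fold for Elovl3, 2.75-fold for Hsd17b7, 2.62-fold for Scd1 and 2.57-fold for Lss, genes named after their values were seen. Scd2 was the exception, at 0.806 times the others. Beside the wound-edge markers given above, this library had higher summed basal keratinocyte markers (5377 CPM over 7 genes, against 2942 and 2708 CPM) and sebocyte markers (2986 CPM over 10 genes, against 2287 and 1881 CPM). At day 1 the basal keratinocyte sum was 5132 to 9212 CPM and the sebocyte sum 1813 to 2244 CPM. The neutrophil sum was 161, 36.2 and 49.9 CPM in the day 0 libraries and 699.8 to 1139 CPM at day 1, and 5 of its 5 markers were called higher in edgeR. The fibroblast sum was 58939 to 69238 CPM at day 0 and 24048 to 51321 CPM at day 1. Of its 6 markers, however, 1 was called in edgeR and it was higher, with a median log2 difference of -0.37. Of 10 sebocyte markers 1 was called lower, and 0 of 7 basal and 0 of 5 wound-edge keratinocyte markers were called. Of all genes, 4.22% were called higher and 3.36% lower. No marker of these 5 lists was at 0 in every library of a day, and the part of these cells in the result was not tested.

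The day 1 result turned on that library. Without day 0 replicate 1, an alternative run, 15 of 29 genes were called in edgeR, all higher at day 1, against 13.8% of all genes called and 7.71% called higher. They were 6 of 7 mevalonate genes (Acat2, Hmgcs1, Mvk, Mvd, Idi1 and Fdps), 6 of 11 squalene and sterol genes (Fdft1, Sqle, Cyp51, Nsdhl, Ebp and Sc5d), Acaca and Elovl3 of the fatty acid genes, and Stard4. The smallest adjusted p was that of Nsdhl, a sterol demethylation enzyme, at 0.00405 in edgeR with a log2 difference of 0.73 ± 0.12. Idi1 differed by 1.15 ± 0.21 and Hmgcs1, which makes HMG-CoA, by 0.75 ± 0.15 on the log2 scale. In this alternative the libraries did not overlap for 25 of 29 genes, all higher at day 1, against 29.4% of all genes in that direction. The library left out was the highest at day 0 for 28 of 29 genes, against 39.3% of all genes. Leaving it out therefore raises most differences of the set from day 0 by construction, at every later day. The shares of all genes carry no such tilt and are not a like comparison. Day 0 then held replicates 2 and 3 only. When replicate 1 alone stood for day 0, 0 of 29 were called in edgeR at day 1. In that fit the lone day 0 library is assumed to vary like the other groups.

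**Figure D2:**
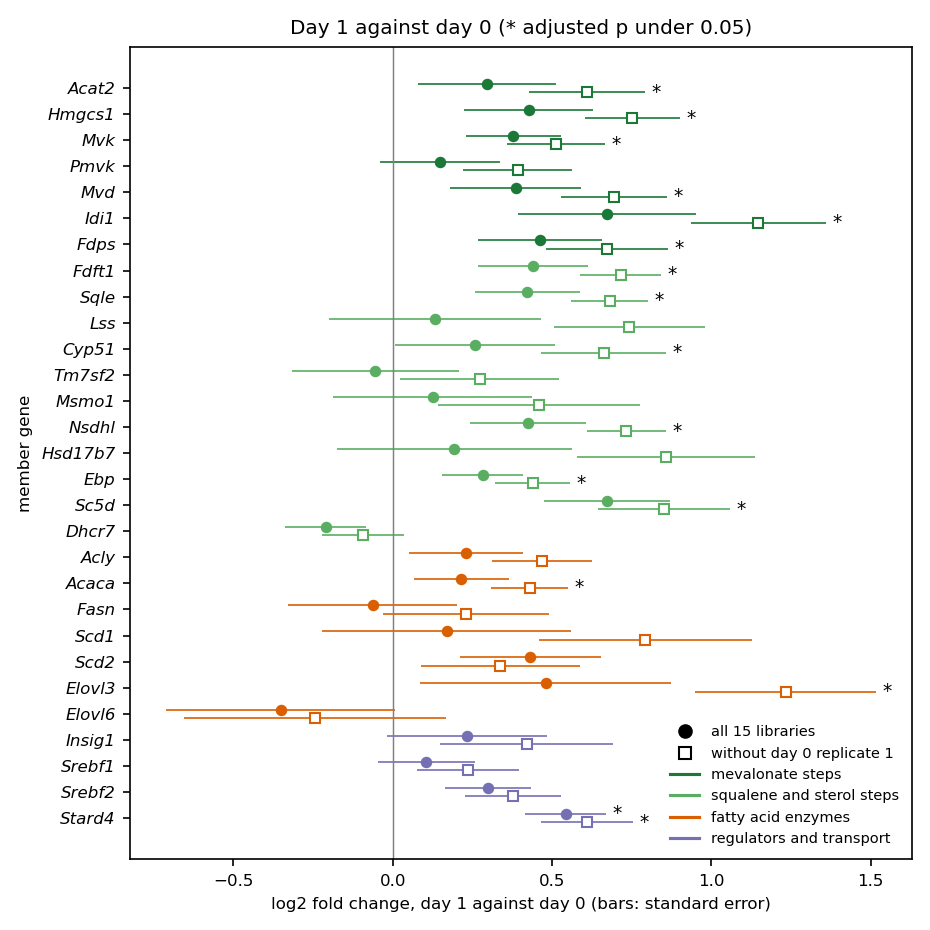
Points give the log2 fold change of each gene at day 1 against day 0, and bars its standard error. Filled circles use all 15 libraries and open squares leave out day 0 replicate 1, and stars mark an adjusted p under 0.05, which Stard4 reached in both fits and 14 other genes in the second only.

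At day 3 most of the genes had lower levels than at day 1, though no single gene was called. The log2 difference was below 0 for 24 of 29 genes and above 0 for 5, against 49% of all genes above 0, with a median of -0.32 against -0.01 over all genes. In edgeR 0 of 29 were called, as was 0.00584% of all genes. Without both hair-rich libraries, which belong to neither day, 1.5% of all genes were called, and the count among the 29 is not reported here. At an unadjusted p under 0.05 there were 9 lower genes, against 6.34% of all genes, and 1 higher gene, against 6.49%. DESeq2 called 2, Acaca and Sc5d, both lower, against 2.74% of all genes. For 16 of 29 genes all day 3 libraries lay below all day 1 libraries, against 13.2% of all genes, and for 0 of 29 did they lie above, against 11.6%. The 16 were 9 of 18 genes of the mevalonate and sterol steps, 4 of 7 fatty acid genes (Acaca, Fasn, Scd1 and Scd2), and Srebf1, Srebf2 and Stard4. Leaving out each library of these days in turn gave 16 to 20 genes, against 15.7% to 21.7% of all genes. This comparison does not use the day 0 libraries. The summed basal keratinocyte markers were 5132 to 9212 CPM at day 1 and 7079 to 9691 CPM at day 3. The summed neutrophil markers (5 genes) were 699.8 to 1139 CPM at day 1 and 466 to 833 CPM at day 3, and the summed fibroblast markers (6 genes) 24048 to 51321 CPM and 30586 to 65340 CPM. The part of these cells in the lower levels was not tested.

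Elovl6, which lengthens 16-carbon fatty acids, was the 1 gene with an unadjusted p under 0.05 in the other direction. It measured 601, 530 and 446 CPM at day 0 and 251, 290 and 694 CPM at day 1. It then measured 776, 576 and 1141 CPM at day 3, 832, 519 and 688 CPM at day 5, and 508, 496 and 343 CPM at day 7. The day 3 and day 1 libraries overlapped, through day 1 replicate 3, and the log2 difference of 1.01 ± 0.36 had an adjusted p of 0.281 in edgeR. Elovl3, which makes longer chains and is a gene of sebaceous glands and brown fat, measured 211, 60.8 and 77.1 CPM at day 0 and 132, 109 and 245 CPM at day 1. Its later values were 207, 175 and 184 CPM at day 3, 194, 183 and 225 CPM at day 5, and 132, 160 and 160 CPM at day 7. Day 0 replicates 2 and 3 were the lowest libraries for Elovl3. Without day 0 replicate 1 it was called higher in edgeR at all 4 later days, with log2 differences of 1.23, 1.45, 1.54 and 1.13 at days 1, 3, 5 and 7. Of all genes, 13.8%, 3.61%, 2.84% and 6.31% were then called. The library left out was 3.06-fold above the mean of the other day 0 libraries, so leaving it out raises these differences by construction. All 4 comparisons also share the same day 0 libraries. With all libraries, edgeR's test over the 5 days gave Elovl3 an adjusted p of 0.47.

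The gene that differed over the 5 days was Acaca, which encodes acetyl-CoA carboxylase, the enzyme that commits acetyl-CoA to fatty acids. Acaca measured 129, 83.9 and 90.7 CPM at day 0 and 112, 119 and 121 CPM at day 1. It measured 66.4, 80.3 and 75.8 CPM at day 3, 77.3, 76.4 and 59.7 CPM at day 5, and 74.0, 72.2 and 67.9 CPM at day 7. Every library of days 3 to 7 lay below every library of days 0 and 1. Acaca was the 1 of 29 genes called by the test over all 5 days (adjusted p = 0.014, edgeR), against 13.9% of all genes called. It was called in each of the 15 fits that left out 1 library, with an adjusted p of 0.00322 to 0.0452. Another 5 genes had an unadjusted p under 0.05 over time, Srebf1, Srebf2, Stard4, Sc5d and Fdps, so that 6 of 29 did, against 35.2% of all genes. The count of genes called over time in edgeR was 9 without day 0 replicate 1, where 17.1% of all genes were called. It was 4 when day 5 replicate 2 was left out (15.5% of all genes), 3 when day 7 replicate 3 was (16.7%), 6 when both were (22.1%), and 2 when day 1 replicate 3 was (10.3%). DESeq2 called 5 over time, against 34.2% of all genes.

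No gene of the set was called in edgeR at day 3, day 5 or day 7 against day 0, comparisons that share their day 0 libraries with each other and with day 1. All genes were called at rates of 0.788%, 0.502% and 7.05%. An unadjusted p under 0.05 was found for 2, 2 and 4 of the 29 genes, all lower, against 7.18%, 10.7% and 14.4% of all genes in that direction. DESeq2 called 0, 1 (Acaca, lower) and 2 (Acaca and Srebf1, lower), against 5.5%, 6.77% and 16.5% of all genes. At day 7 the log2 difference of Acaca was -0.50 ± 0.15 with an adjusted p of 0.0605 in edgeR and 0.0191 in DESeq2. Without day 0 replicate 1, edgeR called Elovl3 at each of these days and Idi1 at day 7 (log2 difference 0.89), all higher, against 3.61%, 2.84% and 6.31% of all genes called. Between day 3 and day 5, 0 of 29 were called in edgeR, against 0.0233% of all genes, and 0 had an unadjusted p under 0.05, against 15.1%. Between day 5 and day 7, 0 were called, against 0.00584%, and 1 had an unadjusted p under 0.05, Dhcr7, which was lower, against 4.42%. DESeq2 called 0 in both of these comparisons, against 3.1% and 0.893% of all genes.

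Fasn, fatty acid synthase, described here after its values were seen, was arranged like Acaca. It measured 642, 384 and 385 CPM at day 0 and 400, 487 and 465 CPM at day 1. It then measured 284, 298 and 358 CPM at day 3, 332, 264 and 336 CPM at day 5, and 342, 376 and 173 CPM at day 7. Every library of days 3 to 7 was below every library of days 0 and 1, as for Acaca, although the margin between day 0 and day 7 was narrow. The day 7 difference of -0.66 ± 0.27 (log2, adjusted p = 0.13, edgeR) became -0.38 without day 7 replicate 3 and -0.37 without day 0 replicate 1. The adipocyte markers, which include no gene of the set, summed to 2342 to 2948 CPM at day 0 and 847 to 2036 CPM at day 7, with the lowest value in day 7 replicate 3. Their part in the lower levels of Acaca and Fasn was not tested.

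Srebf1, the SREBP gene known best for control of fatty acid synthesis, measured 137, 105 and 109 CPM at day 0 and 113, 134 and 130 CPM at day 1. It measured 110, 108 and 97.7 CPM at day 3, 87.4, 88.2 and 106 CPM at day 5, and 96.5, 92.7 and 64.9 CPM at day 7. The day 7 libraries were all below the day 0 libraries, and the log2 difference was -0.47 ± 0.15 with an adjusted p of 0.0785 in edgeR. Leaving out day 7 replicate 1 brought it to 0.0479 (11.9% of all genes were then called), leaving out day 7 replicate 3 brought the difference to -0.30, and DESeq2 gave an adjusted p of 0.0325. Acaca, Fasn and Srebf1 were the 3 of 29 genes whose day 7 libraries all lay below day 0, against 15.3% of all genes. At day 3 and at day 5 the genes were Acaca and Fasn, 2 of 29 each, against 12.4% and 13.8%.

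**Figure D3:**
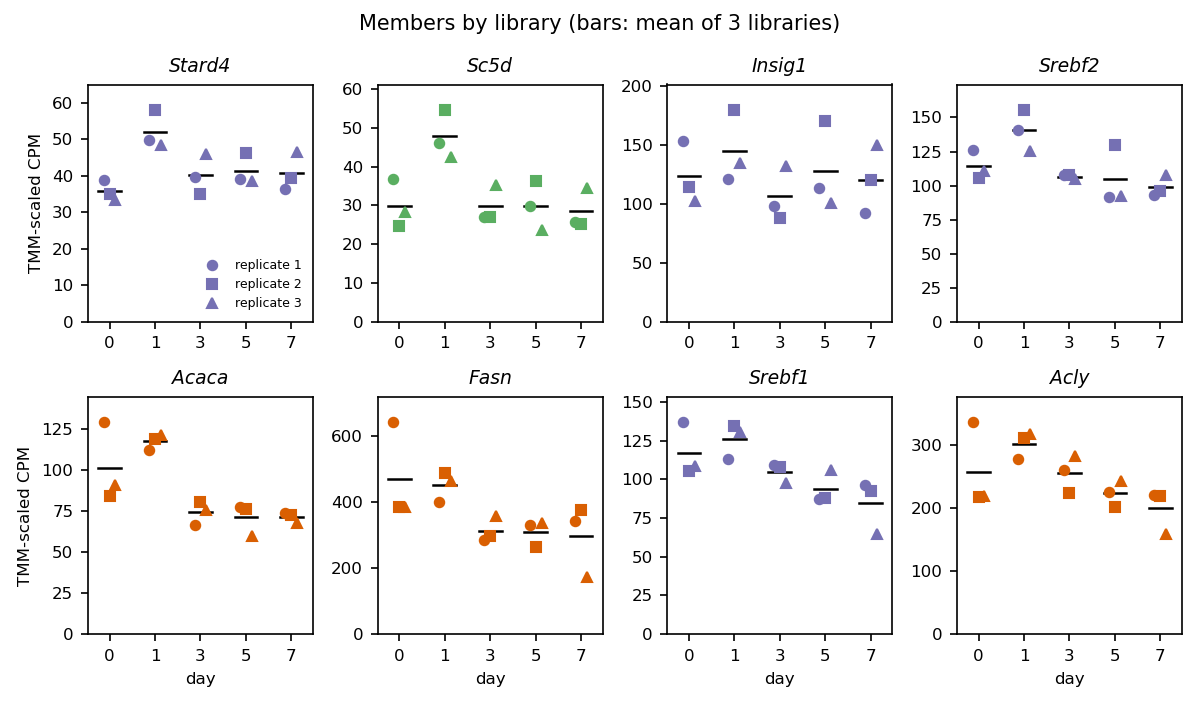
TMM-scaled CPM in each library is plotted by day for 8 genes, with a symbol for each replicate and a bar at the mean of 3 libraries. In Acaca and Fasn every library of days 3 to 7 lies below every library of days 0 and 1, and in Stard4 and Sc5d the 3 day 1 libraries lie above all day 0 libraries.

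Averaged over members and over the 3 libraries, the steps to sterols and the steps to fatty acids were both above their day 0 means at day 1. The sterol branch, the mean log2 CPM of the 18 mevalonate and sterol genes, was 0.35 above its day 0 mean at day 1, 0.07 at day 3, 0.14 at day 5 and 0.09 at day 7. The fatty acid branch, the mean of 7 genes, was 0.19, 0.06 and 0.02 above and then -0.14 from its day 0 mean on the same days. At day 1 the fatty acid branch was at -0.03, 0.12 and 0.48 in the 3 libraries, so that replicate 3 weighed most in the mean. The sterol branch was at 0.24, 0.41 and 0.41 at day 1. For both branches the day 1 values overlapped the day 0 values. At day 7 the fatty acid branch was at -0.03, 0.03 and -0.42 in the 3 libraries, so that replicate 3 set the mean, and the sterol branch was at -0.01, 0.27 and -0.01. At day 0 both branches ran from their highest value in replicate 1, 0.51 for sterols and 0.47 for fatty acids, to -0.33 and -0.27. The difference between branches at day 7, 0.23, was carried by libraries at 0.03, 0.25 and 0.41, against -0.13 to 0.09 at day 0, and these ranges overlapped. Both series of means hung on the day 0 libraries. Without day 0 replicate 1 the sterol branch was 0.61, 0.33, 0.40 and 0.34 above day 0 at days 1, 3, 5 and 7, and the fatty acid branch 0.42, 0.30, 0.26 and 0.09. When day 0 replicate 2 was left out instead, the sterol branch was at 0.26, -0.02, 0.05 and -0.00 and the fatty acid branch at 0.05, -0.07, -0.11 and -0.28. When day 0 replicate 3 was left out, they were at 0.19, -0.09, -0.02 and -0.08 and at 0.09, -0.04, -0.08 and -0.24. The fatty acid mean also depended on Elovl3: without that gene it was at 0.12, -0.08, -0.14 and -0.27, and the median over the 7 genes was at 0.07, -0.17, -0.23 and -0.32. No p is given for these means because they are averages over chosen genes.

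**Figure D4:**
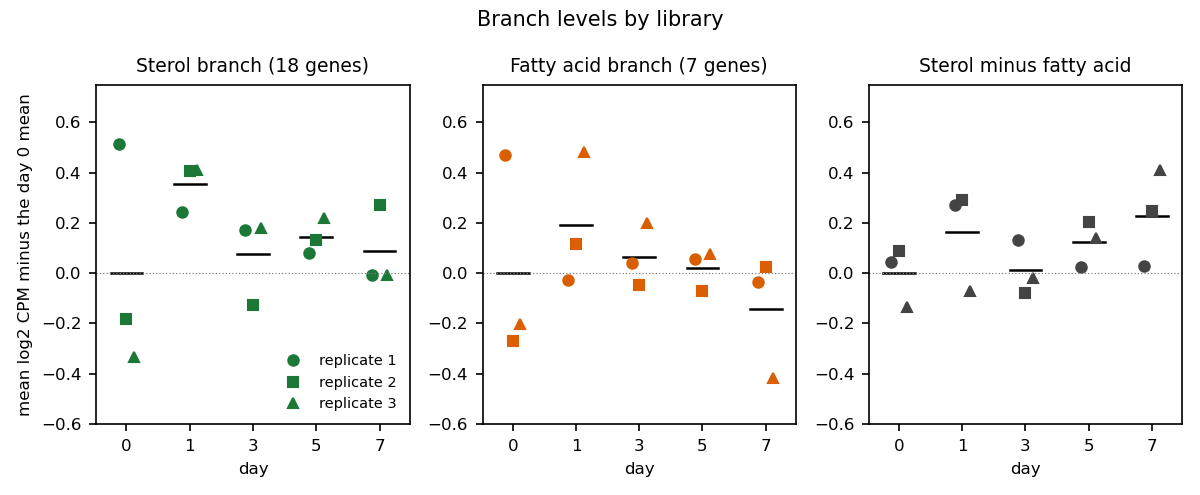
Each symbol is the mean log2 CPM of a branch in 1 library minus the mean of the 3 day 0 libraries, plotted by day, with bars at the mean of 3 libraries. Day 0 replicate 1 lies at 0.51 for the sterol branch and 0.47 for the fatty acid branch, and day 7 replicate 3 lies at -0.42 for the fatty acid branch.

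The 2 stearoyl-CoA desaturases, which put the first double bond into fatty acids, were often high in different libraries. Scd1, the form of sebaceous glands, measured 3655, 1385 and 1408 CPM at day 0 and 2317, 2155 and 2778 CPM at day 1. It measured 1937, 1948 and 2042 CPM at day 3, 2122, 1628 and 3090 CPM at day 5, and 2215, 2768 and 1121 CPM at day 7. Scd2, its close copy, measured 213, 242 and 287 CPM at day 0 and 258, 404 and 339 CPM at day 1. It measured 222, 212 and 222 CPM at day 3, 185, 314 and 175 CPM at day 5, and 285, 242 and 321 CPM at day 7. The library highest in Scd1 was the lowest in Scd2 at day 0, day 5 and day 7. The library lowest in Scd1 was the highest in Scd2 at day 1, day 5 and day 7. The genes are similar in sequence, so estimated counts may be shared between them in part. Both were described after their values were seen.

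Over the 15 libraries, Pearson's r of log2 CPM between Scd1 and Scd2 was -0.34. It was -0.09 over the 12 libraries left without day 0 replicate 1 and both hair-rich libraries. With each day's mean removed, it was -0.62 over the 15 libraries. Of the other 27 genes, 20 had a higher r with Scd1 than with Scd2. Those most like Scd1 were Hsd17b7, a sterol ketone reductase (r = 0.89), Acat2, the thiolase of the first step (0.84), and Lss and Cyp51, which make and demethylate lanosterol (both 0.82). The 7 more like Scd2 were Mvk, Fdps, Sc5d, Acaca, Insig1, Srebf2 and Stard4, so 3 of the 4 regulators were on that side and 15 of 18 mevalonate and sterol genes on the other. All genes share the same libraries, days and scaling, and r is a description. When day 0 replicate 1 and both hair-rich libraries were left out (12 libraries), 24 of 27 genes stayed on their side, and Acly, Fasn and Srebf1 changed sides. With each day's mean removed, 26 of 27 stayed and Acaca changed sides.

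**Figure D5:**
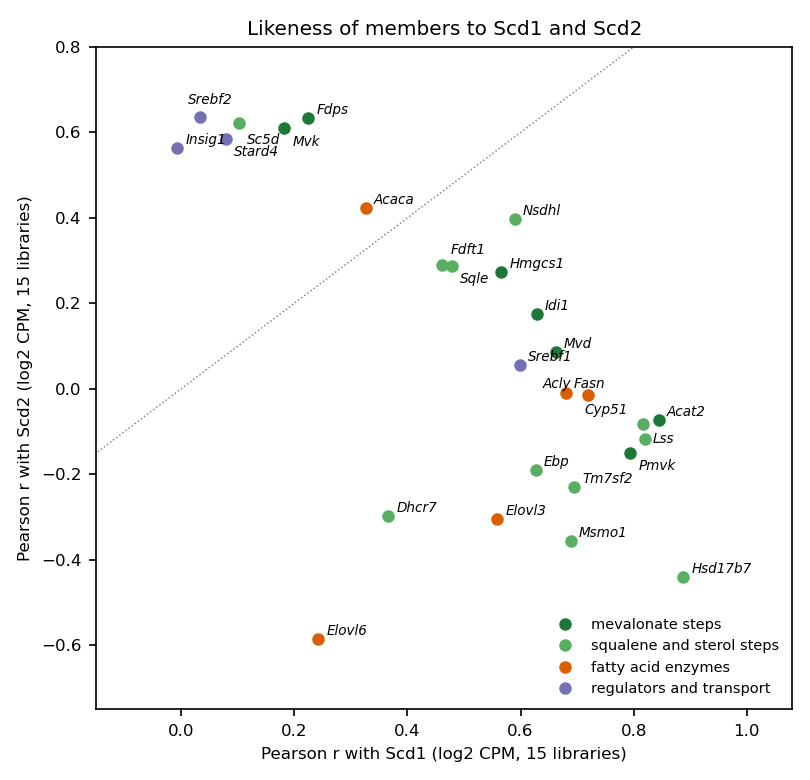
Each point is 1 of 27 genes, placed by its Pearson r with Scd1 (horizontal) and with Scd2 (vertical) over 15 libraries, and the dotted line marks equal r. Below the line lie 20 genes, with Hsd17b7 farthest right at 0.89, and above it lie 7, among them 3 of the 4 regulators.

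Day 7 replicate 3, with its high hair markers, was 1 of the libraries that entered these r values. Against the mean of the other day 7 libraries, 15 of the 20 genes on the Scd1 side were lower in it and 6 of the 7 on the Scd2 side were higher. Because that library helped to set the sides, this split is in part built in. The exceptions differed by at most 0.14 on the log2 scale, Elovl3 being the highest of them, and Acaca was at -0.11. Against the mean of the other day 7 libraries, Scd1 was -1.14, Fasn -1.05 and Hsd17b7 -0.85 on the log2 scale, while Scd2 was 0.29 and Insig1 0.51. In that library the sebocyte sum was 1716 CPM, against 2537 and 2959 CPM in the other day 7 libraries. The part of sebaceous and hair cells in this division was not tested.

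Among the regulators, Srebf2, the SREBP gene known best for control of cholesterol synthesis, had a day 1 mean of 141 ± 15.1 CPM against 114 ± 10.7 CPM at day 0 (SD, n = 3 each). The log2 difference was 0.30 ± 0.14 with an adjusted p of 0.177 in edgeR, and all day 3 libraries (104 to 108 CPM) lay below all day 1 libraries (125 to 156 CPM). Insig1, which holds SREBP in the endoplasmic reticulum and is itself an SREBP target, was described after its values were seen. It measured 154, 115 and 103 CPM at day 0 and 121, 180 and 135 CPM at day 1, with wide overlap. Its highest later values were 170.5 CPM in day 5 replicate 2 and 150 CPM in day 7 replicate 3, the 2 hair-rich libraries.

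The remaining genes did not pass the edgeR test in any comparison that used all libraries. Of the mevalonate genes, Acat2, Hmgcs1, Mvk, Pmvk and Mvd had log2 differences of 0.15 (Pmvk) to 0.43 (Hmgcs1) at day 1. Of the sterol genes, Sqle, Lss, Cyp51, Tm7sf2, Msmo1, Nsdhl, Hsd17b7, Ebp and Dhcr7 had differences of -0.21 (Dhcr7) to 0.42 (Nsdhl and Sqle). Dhcr7, the reductase that makes cholesterol itself, was 1 of the 4 genes below 0 at day 1, and the others were Tm7sf2, Fasn and Elovl6. At day 7 Dhcr7 stood at -0.33 ± 0.13 (adjusted p = 0.123, edgeR). Acly, which makes cytosolic acetyl-CoA for both pathways, measured 258 ± 68.1 CPM at day 0, 302 ± 21.8 CPM at day 1 and 200 ± 35.8 CPM at day 7 (SD, n = 3 each), and its day 7 difference of -0.37 ± 0.18 had an adjusted p of 0.198 in edgeR.

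Around the pathway, 53 further genes in 3 lists were read from the same fit. In the list of 18 genes of sterol control and handling, 3 were called at day 1, all lower, against 3.36% of all genes called lower. Mbtps1, the protease that makes the first cut in SREBP, was 149, 151 and 150 CPM at day 0 and 110, 120 and 103 CPM at day 1, a log2 difference of -0.43 ± 0.09 (adjusted p = 0.0188, edgeR). Insig2, a partner of Insig1 that sterols do not induce, was 151, 156 and 136 CPM at day 0 and 94.3, 104 and 100.5 CPM at day 1 (-0.57 ± 0.16, adjusted p = 0.047, edgeR). Cyp27a1, which makes 27-hydroxycholesterol, was 28.0, 40.1 and 39.2 CPM at day 0 and 12.1, 13.6 and 16.6 CPM at day 1 (-1.34 ± 0.33, adjusted p = 0.0315, edgeR). For all 3 genes the day 1 libraries lay below the day 0 libraries, day 0 replicate 1 included, as was so for 18% of all genes. The 3 genes were named because they were called lower, so this adds no separate support. Leaving out 1 library took the adjusted p of Mbtps1 past the threshold in 4 of 6 fits, that of Cyp27a1 in 5 of 6 and that of Insig2 in 6 of 6, with the direction kept.

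In the list of 20 partners of fatty acid synthesis, 1 was called at day 1, and it was higher, against 4.22% of all genes called higher, a share near the background. Fads1, the delta-5 desaturase of polyunsaturated fatty acids, rose from 40.5, 47.9 and 49.0 CPM at day 0 to 61.3, 72.5 and 60.1 CPM at day 1, a log2 difference of 0.50 ± 0.11 (adjusted p = 0.0221, edgeR). In the list of 15 barrier lipid genes, 2 were called higher and 1 lower at day 1, against 4.22% and 3.36% of all genes. Ugcg, glucosylceramide synthase, rose from 78.5, 67.5 and 71.1 CPM to 183, 147 and 120 CPM (1.05 ± 0.16, adjusted p = 0.00713, edgeR). Sptlc2, a subunit of the enzyme that starts sphingolipid synthesis, rose by 0.36 ± 0.09 on the log2 scale (adjusted p = 0.0355, edgeR), and Aloxe3, an epidermal lipoxygenase of the barrier, changed by -0.73 ± 0.20 (adjusted p = 0.0475, edgeR). Of these 4 calls, Ugcg was kept in 5 of 6 fits that left out 1 library, Fads1 in 2, Sptlc2 in 1 and Aloxe3 in 0.

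At day 7, 2 of 18 sterol control genes were called, 1 in each direction, against 3.1% of all genes called higher and 3.94% called lower. DESeq2 called 5 of the 18, and 6 had an unadjusted p under 0.05 in edgeR, against 16.5% and 27.9% of all genes. Mbtps1 was lower (-0.32 ± 0.09, adjusted p = 0.0487, edgeR), and Ggps1, which lengthens farnesyl diphosphate, was higher (0.34 ± 0.09, adjusted p = 0.0445, edgeR). Of the 20 partners, 1 was called in edgeR and 8 had an unadjusted p under 0.05, and DESeq2 called 5, all lower. The edgeR call was Mlxipl, the carbohydrate-responsive activator ChREBP, which was lower at day 7, with 9.08, 8.38 and 8.64 CPM at day 0 and 3.89, 4.45 and 2.55 CPM at day 7 (-1.26 ± 0.25, adjusted p = 0.0162, edgeR). The Mlxipl call was kept in 5 of 6 fits that left out 1 library, the exception being day 7 replicate 3 (adjusted p = 0.0512, edgeR), and the Mbtps1 and Ggps1 calls in 1 of 6 each. Of the 15 barrier lipid genes, 0 were called at day 7 in edgeR, 3 had an unadjusted p under 0.05, and DESeq2 called 1. At day 3 and at day 5 edgeR called 0 genes of the 3 lists against day 0. At an unadjusted p under 0.05 there were 5 and 4 sterol control genes, 2 and 2 partners, and 4 and 3 barrier genes on these days, against 15.8% and 19.7% of all genes. DESeq2 called 4 barrier genes at day 3 and no other, against 5.5% of all genes at day 3 and 6.77% at day 5. Over the 5 days, 6 of 18, 2 of 20 and 4 of 15 genes were called, in the order of the lists above, against 13.9% of all genes. The lists were picked with earlier results of these data known, and their counts are descriptions.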

How the data were processed

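Skin RNA was sequenced in 15 libraries, 3 at each of 5 days. The deposited values are estimated counts per gene, whole numbers in the files; the submitters' processing notes name kallisto 0.43. Which index and genome build were used, and how transcripts became genes, is not given in the sources used here. Rows whose names are calendar dates (26 per file, 0.155% to 0.179% of counts) were left out, because the spreadsheet dates no longer name genes.

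Groups were taken from the sample labels. Counts were analysed in R 4.3.3 with edgeR 4.0.16: filterByExpr with a minimum count of 10, TMM scaling, 1 quasi-likelihood fit over all 15 libraries with day as the group, and Benjamini-Hochberg adjustment over 17136 genes at a threshold of 0.05. Standard errors were derived from the quasi-likelihood F. Log2 CPM used a prior count of 2. The test was checked on simulated data. Alternatives were DESeq2 1.42.0, RLE scaling, no filter, fits of 2 days only, a replicate block, leaving out each library, and leaving out libraries that stand apart.

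Values in every library are given for called members and for the 2 members of each role whose day means ranged most. Other members with library values are said to have been described after their values were seen. Of the other lists, called genes are named, with library values for some. The members and lists were chosen with earlier results of these data known. Promoters and motif matches come from RefSeq (GRCm38.p6), and exon overlaps from GENCODE. No 2 libraries of the same day were duplicates: they differed by a chi-square of at least 34.2 per gene.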

Additional observations from a re-analysis of the deposited data

How the results depend on the processing

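Of the 29 genes, the number called in edgeR at day 1 against day 0 was 1 with all libraries, 0 with the replicate block, 0 when replicate 1 alone stood for day 0, 2 in DESeq2 (Sc5d and Stard4), and 0 to 15 when 1 library was left out. At day 3, day 5 and day 7 it was 0, and leaving out 1 library gave 0 to 1, 0 to 1 and 0 to 2. DESeq2 called 1 at day 5, 2 at day 7 and 2 at day 3 against day 1. For the 3 comparisons of adjacent days after day 1, leaving out 1 library gave 0 to 0. Over time the count was 1, with 1 to 9 when 1 library was left out, 6 without the 2 hair-rich libraries and 5 in DESeq2, where 34.2% of all genes were called. RLE scaling, no filter and fits of 2 days only kept every count of the 29 genes. Outside them, Mbtps1 at day 7 lost its call under all 3 and Ggps1 at day 7 under the latter 2, Insig2 and Aloxe3 at day 1 with no filter, and Mlxipl at day 7 in the fit of 2 days. The replicate block lost these calls other than that of Mlxipl, and that of Cyp27a1. No call changed direction under any of these settings. Over 30 pairs of libraries with the same replicate number, r of deviations from the day means ran from -0.73 to 0.49, and 13 pairs were over 0.1. Pairs with unlike numbers were not computed, so these r values cannot decide whether the numbers pair the libraries. The replicate block changed the count of the 29 genes at no comparison other than day 1. The sterol branch minus the fatty acid branch was 0.01 at day 3 and 0.12 at day 5; leaving Elovl3 out gave 0.15 and 0.29, and a median over members gave 0.24 and 0.38. The cause of these shifts was not tested. With 3 libraries a day, the wide spread among day 0 libraries limits the precision of every difference from day 0.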
